A study of Mus musculus with 8 samples.

Results

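The comparison described here is the mock immunoprecipitation (IP) with normal mouse IgG against total input RNA: 4 Agilent whole-genome arrays for mouse, each read in 1 colour (Cy3), 2 of mock IP and 2 of input, of the 8 arrays in the series. The arrays were chosen by their labels alone, and the comparison runs over all 19020 genes that could be tested. All samples came from primordial germ cells derived in vitro. The parent line was V6.5, a mouse embryonic stem cell line of mixed C57BL/6 and 129SV strain, and the cells carried DAZL fused to GFP and V5. The cells were depleted of feeder cells by plating on plastic and harvested after 12 days in differentiation medium. The input group is total RNA with no antibody. The mock group is RNA recovered from native lysates, without ultraviolet crosslinking, with normal mouse IgG, an antibody mixture with no intended target. The other 4 arrays, 2 of an anti-V5 IP and 2 of an anti-GFP IP from the same kind of cells, entered the test only through the shared estimate of the spread, and their levels are given beside a few genes. The labels do not say that the 2 arrays of a group came from separate cultures. The p-values therefore take the spread of these arrays as it is, technical or not.

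A mock IP is the background control of an RNA IP. RNA can reach it by binding to the beads, the tube or the antibody, by sedimenting with large particles, or by riding on a protein that does any of these. Cytoskeletal proteins, among them non-muscle myosin, actin and their partners, are common background proteins of immunoprecipitations from native lysates. Non-muscle myosin II is a motor that pulls actin filaments together; drebrin and other actin-binding proteins decorate, cap or cross-link those filaments, and spectrins form a mesh with actin under the plasma membrane.

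A level is the log2 processed spot intensity after subtraction of the 75th percentile of all gene probes on that array, so a level of 0 lies at that percentile and a difference of 1 is a factor of 2. It is read from 1 probe and is compared only between arrays. A called gene had a Benjamini-Hochberg adjusted p under 0.05 in limma, two-sided, over the 19020 genes. All adjusted p-values below are limma's.

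Of the 19020 genes, 1227 were called higher in the mock IP (6.45%) and 816 were called lower (4.29%). The fold changes at both ends were large: the 15 highest genes lay between 7.93-fold and 28.6-fold where they were measured in both groups. The 15 highest included the cytoskeletal genes Dbn1, Myh14, Myh10, Myh9, Itpka and Lmo7 and the non-coding RNA Rmrp. Those at the lower end included the meiotic genes Hormad1 and Sycp3, the kinetochore and spindle checkpoint genes Ndc80 and Ttk, and the translation factor gene Eif5b. Centring each array on the median of the tested genes gave 824 called higher and 850 called lower. With the replicate number as a block, 3912 genes (20.6%) were called higher and 2602 (13.7%) lower, and these held all of the 1227 and 816. Without mock replicate 1 or without input replicate 1 no gene was called, although 2437 higher and 1743 lower, and 2092 higher and 1310 lower, had an unadjusted p under 0.05 in limma. Without input replicate 2, Dbn1 alone was called (adjusted p = 0.0333, limma), and without mock replicate 2 the counts were 2405 higher and 1409 lower. When the spot background was handled by normexp in place of the scanner's processed signal, 8 genes were called higher and 0 lower, with 1922 and 926 at an unadjusted p under 0.05.

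Dbn1 encodes drebrin, an actin filament binding protein. Its level was 5.06 on mock 1, 4.92 on mock 2, 0.00 on input 1 and 0.30 on input 2. Both mock arrays lay far above both input arrays, and the mock arrays differed from each other less than the input arrays did. The log2 fold change was 4.84 ± 0.24 (SE, n = 2 arrays a group), or 28.6-fold (limma adjusted p = 0.00149). The level was 3.45 and 3.51 in the V5 IP and 3.0 and 3.35 in the GFP IP. Dbn1 was also called under normexp (4.78, adjusted p = 0.00727), and its log2 fold change with 1 array left out ranged from 4.69 to 4.99.

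The 3 genes for non-muscle myosin II heavy chains were all among the 15 highest. Myh14 had levels of 5.91 and 5.55 on the mock arrays against 1.68 and 1.56 on the input arrays, a log2 fold change of 4.11 ± 0.25 (17.3-fold, limma adjusted p = 0.00303). Myh10 had levels of 4.16 and 5.0 against 0.97 and 0.89, a log2 fold change of 3.65 ± 0.52 (12.5-fold, adjusted p = 0.0192). With normexp Myh10 had a log2 fold change of 3.575 and was not called (limma adjusted p = 0.155). Myh9 had levels of 9.61 and 8.69 against 5.85 and 5.83, a log2 fold change of 3.31 ± 0.32 (9.89-fold, adjusted p = 0.00914). In all 3 genes the mock and input arrays did not overlap, which the choice of the 15 highest required. The input arrays lay closer to each other than the mock arrays did. In the V5 and GFP IPs the Myh9 probe read between 8.04 and 8.14 on the 4 arrays. Each of the 3 genes has 1 other kept probe, and none of those differed in sign. For Myh9 the size depends on the probe: the mean over its probes gave a log2 fold change of 1.78 (adjusted p = 0.0568). Without mock 1 the adjusted p was 0.0539 for Myh9, and without input 1 or input 2 it was 0.107 and 0.121.

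**Figure D1:**
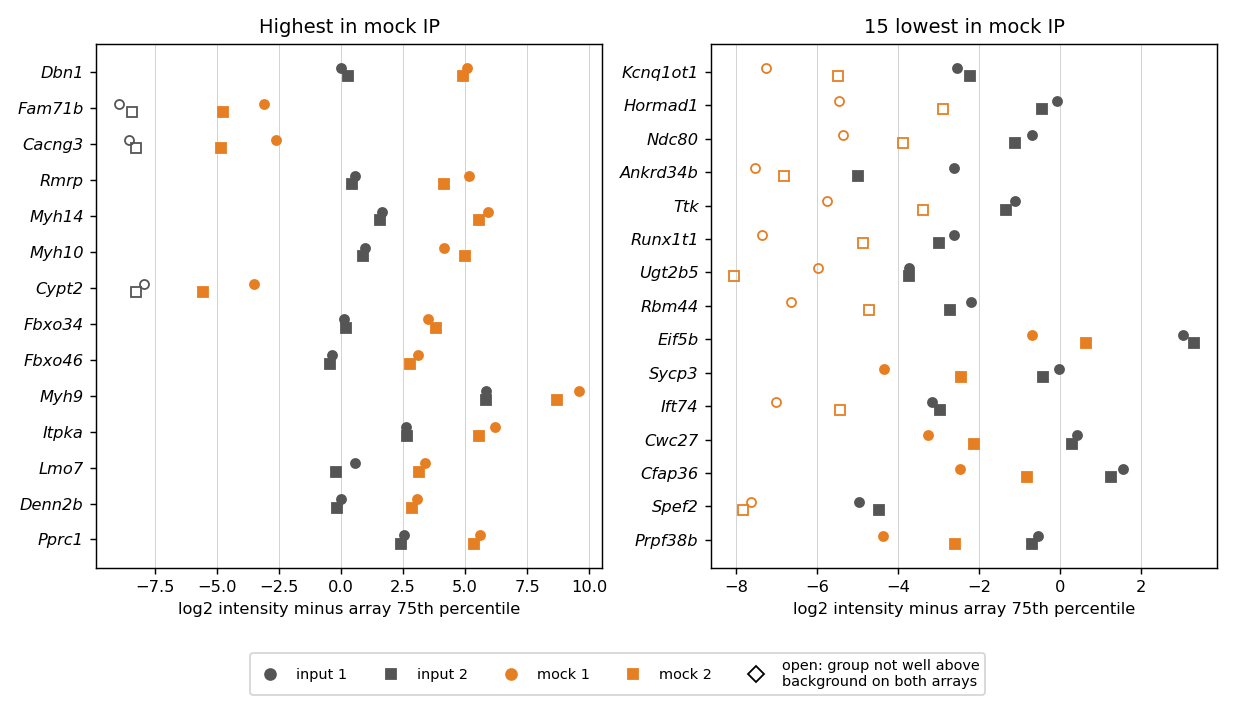
Levels of 14 of the 15 called genes with the highest log2 fold change (left) and of the 15 with the lowest (right) on each of the 4 arrays as log2 intensity minus the array's 75th percentile (horizontal axis). Grey points are input, orange points mock IP, circles replicate number 1 and squares replicate number 2; open points mark a group that was not well above background on both of its arrays. The genes were picked among those without overlap of the groups, so their separation is a condition of the choice. The mock arrays of most of the lowest genes lie farther apart than the input arrays. Hormad1 is an example, with -5.46 and -2.89 on the mock arrays against -0.07 and -0.45 on the input arrays.

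Rmrp, the RNA component of the mitochondrial RNA processing endoribonuclease, is a short non-coding RNA made by RNA polymerase III. Its level was 5.14 on mock 1 and 4.13 on mock 2, against 0.56 on input 1 and 0.45 on input 2. The log2 fold change was 4.13 ± 0.48 (17.5-fold, limma adjusted p = 0.0167). Both mock arrays were more than 3.5 log2 units above both input arrays. With normexp the log2 fold change of Rmrp was 4.02 and the gene was not called (limma adjusted p = 0.103). The level was 4.03 and 2.97 in the V5 IP and 3.86 and 3.0 in the GFP IP, with the replicate 1 array higher in each group. Without mock 1 the adjusted p was 0.0822, without input 1 it was 0.136 and without input 2 it was 0.152. Terc, the RNA component of telomerase and another small non-coding RNA, had levels of -1.18 and -1.75 on the mock arrays and -3.09 and -2.59 on the input arrays (1.37 ± 0.36, adjusted p = 0.0504) and was not called.

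Itpka, an actin-bundling kinase of inositol trisphosphate, had levels of 6.22 and 5.58 on the mock arrays and 2.64 and 2.66 on the input arrays (3.25 ± 0.27, 9.49-fold, adjusted p = 0.00587). Lmo7, an actin-binding protein of cell junctions, had levels of 3.40 and 3.16 against 0.55 and -0.20 (3.11 ± 0.31, 8.63-fold, adjusted p = 0.0102). With normexp Lmo7 had a log2 fold change of 3.06 and was not called (limma adjusted p = 0.0529). In both genes the groups were separated by more than 2.5 log2 units. Also measured in both groups among the 15 were 2 F-box genes, Fbxo34 (11.4-fold) and Fbxo46 (10.2-fold), whose products recruit substrates to ubiquitin ligases, Denn2b (8.08-fold), which encodes a DENN domain protein, and Pprc1 (7.93-fold), a coactivator of the PGC-1 family. Another 3 of the 15 were measured in the mock IP only: Cacng3 was at least 6.18-fold higher, Fam71b at least 5.37-fold and Cypt2 at least 3.57-fold. Their probes were not well above background on either input array, and these folds are lower bounds set against the lowest signal that was. With normexp the log2 fold changes of these 3 genes were 0.40, 0.37 and 0.10 (adjusted p between 0.887 and 0.969), so their height rests on the handling of background. On mock 2 these 3 genes were also lower than on mock 1, by 1.65 to 2.21 log2 units. Without mock 1, input 1 or input 2, the adjusted p of the 15 highest lay between 0.0333 and 0.2, and only that of Dbn1 passed; without mock 2 all 15 were called, and all 15 kept their sign in every case.

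The myosin heavy chain superfamily was described as a whole after these values were seen, so its counts are a description and support nothing further. Of 36 genes on the array 30 were tested, and 9 were called higher (30%) and 0 lower, against 6.45% and 4.29% of all genes. With the replicate number as a block, 20.6% of all genes were called higher. The median log2 fold change was 0.84, against 0.19 over all genes, and on 21 of the 30 both mock arrays lay above both input arrays, against 40.2% of all genes. No myosin heavy chain had both mock arrays below both input arrays, against 26.9% of all genes. Beside the 3 above, the called genes were Myo6, the motor that walks toward the minus end of actin filaments (2.90 ± 0.33), Myo18a (2.74 ± 0.25), the vesicle motor Myo5b (2.49 ± 0.58), Myo7a (1.84 ± 0.27), the smooth muscle heavy chain Myh11 (1.58 ± 0.28) and the filopodial motor Myo10 (1.24 ± 0.29). The striated muscle genes lay at the other end of the list, with Myh3 at -0.54 and Myh6 at -0.46, neither of them called. With the replicate block 15 of the 30 were called higher, and without mock 1, input 1 or input 2 the adjusted p of the 9 lay between 0.0539 and 0.228.

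No gene for a myosin light chain or its kinase, an actin or a tropomyosin was called. Over all genes 6.45% were called higher and 4.29% lower. With lists of 12, 10 and 4 genes, 0 called does not set them apart from all genes. Of 12 tested genes for myosin light chains and their kinases 0 were called, with a median of 0.21, and of 10 actin genes 0 were called, with a median of 0.18. Actb, which encodes cytoplasmic beta actin, had levels of 2.73 and 2.03 on the mock arrays and 1.45 and 0.46 on the input arrays (1.43 ± 0.39, adjusted p = 0.0559). The 4 tropomyosin genes had a median of -0.25 with 0 called. At an unadjusted p under 0.05 in limma, 1 light chain gene and 1 actin gene were higher and 1 tropomyosin gene was lower. Against the median of all genes, the light chain median changed sign with quantile normalization, the actin median with quantile normalization and with the authors' deposited table, and the tropomyosin median with normexp.

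In the 4 tested genes of a list of spectrins, chosen after values were seen, both mock arrays lay above both input arrays, as in 40.2% of all genes. Sptbn1 (2.33 ± 0.31) and the erythroid beta spectrin Sptb (1.46 ± 0.28) were called, and Sptbn4 and the alpha spectrin Sptan1 were not. The list median was 1.28, and all 4 were called higher with the replicate block, as were 20.6% of all genes. The adjusted p of the 2 called genes lay between 0.088 and 0.2 when mock 1, input 1 or input 2 was left out.

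Other actin-binding proteins made a list of 92 tested genes, drawn from textbook knowledge after the highest genes were seen. Of these, 17 were called higher and 3 lower, 18.5% and 3.26% of the list, against 6.45% and 4.29% of all genes. The 17 include Dbn1 and Itpka, which were seen among the highest genes before the list was drawn. The counts are therefore a description and support nothing further. With the replicate block 20.6% of all genes were called higher and 13.7% lower. The list median of 0.26 was close to the 0.19 of all genes, so the called genes lay apart from the bulk of the list. Gsn, which encodes the filament-severing protein gelsolin, had levels of 8.95 and 8.48 on the mock arrays and 5.88 and 6.02 on the input arrays (2.77 ± 0.26, 6.81-fold, limma adjusted p = 0.0088). Cgn, the tight junction protein cingulin, had levels of -0.40 and -0.56 against -3.01 and -3.43 (2.74 ± 0.27, 6.68-fold, adjusted p = 0.0102), with 1 of its 2 other probes of opposite sign. Svil, which encodes supervillin, a myosin II and actin binding protein, had levels of 3.08 and 3.39 against 0.77 and 0.64 (2.53 ± 0.28, 5.77-fold, adjusted p = 0.016). Lima1, which stabilises actin bundles, had levels of 6.89 and 6.87 against 4.49 and 4.46 (2.40 ± 0.22, 5.29-fold, adjusted p = 0.0088). In these 4 genes the replicate arrays of a group agreed within 0.5 log2 units and the groups were separated by more than 2. Cttn (cortactin, 2.16 ± 0.31), Actn4 (alpha-actinin 4, 2.06 ± 0.33) and Tln1 (talin, 1.08 ± 0.23) were also called higher. The 3 called lower were Anln (anillin, which scaffolds the cytokinetic ring, -2.05 ± 0.27), Iqgap2 (-1.70 ± 0.34) and Dstn (destrin, which depolymerises filaments, -1.42 ± 0.27). The adjusted p of the 20 called genes without mock 1, input 1 or input 2 lay between 0.0333 and 0.264, with Dbn1 the 1 that passed, and with the block 28 of the list were called higher and 8 lower.

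**Figure D2:**
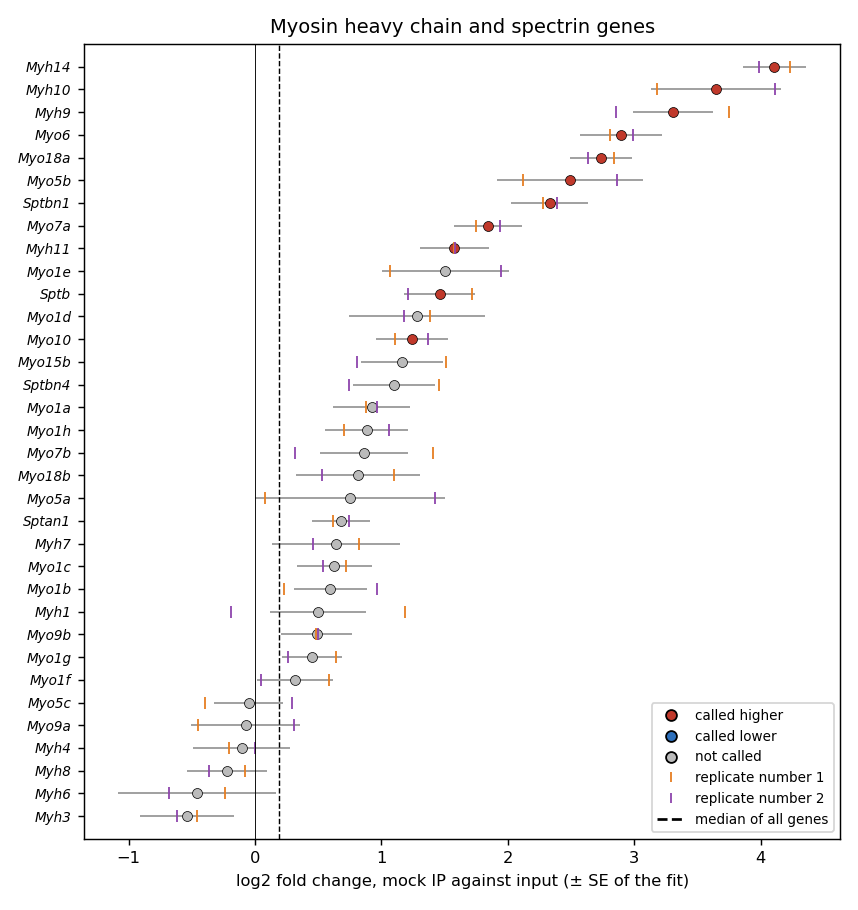
Log2 fold change of mock IP against input (horizontal axis) for the 30 tested myosin heavy chain and 4 spectrin genes, as points with the SE of the fit, red where called higher and grey where not called. Vertical ticks give the difference within replicate number 1 (orange) and 2 (purple), and the dashed line is the median of all genes. The 11 called genes run from 1.24 (Myo10) to 4.11 (Myh14), and the muscle genes Myh3 and Myh6 are the lowest.

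The lowest genes were less well measured than the highest. Of the 816 genes called lower, 181 were not well above background on either mock array and have only a bound, and 65 were well above background on 1 of the 2. Of the 1227 called higher, 23 have a bound and 25 were measured on 1 of the 2 input arrays. Over the 41174 probes, 1153 were well above background on both input arrays and neither mock array, and 38 the reverse. The mock arrays were the dimmer: the 75th percentile of the intensity was 363 on mock 1 and 791 on mock 2, against 998 on input 1 and 1110 on input 2, and 61.3% and 65% of probes were well above background, against 70.5% and 67.4%. The part of array brightness in the lower calls was not tested. When only genes well above background on all 4 arrays were tested, 1539 were called higher and 762 lower.

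Among the 15 lowest, the translation initiation factor gene Eif5b, whose product joins the ribosomal subunits, had levels of -0.70 and 0.62 on the mock arrays and 3.02 and 3.31 on the input arrays. Its log2 fold change was -3.20 ± 0.65 (9.2-fold lower, limma adjusted p = 0.0313), and 4 other probes had the same sign. Over the mean of its probes the value was -2.08 (adjusted p = 0.0489). The splicing factor genes Cwc27, with levels of -3.27 and -2.14 against 0.43 and 0.29 (-3.06 ± 0.40, adjusted p = 0.0182), and Prpf38b, with -4.38 and -2.61 against -0.56 and -0.70 (-2.86 ± 0.56, adjusted p = 0.0294), were lower on both mock arrays. Cfap36, a gene of cilia, had levels of -2.46 and -0.82 against 1.55 and 1.26 (-3.04 ± 0.75, adjusted p = 0.045). In all 4 genes mock 1 was lower than mock 2, by 1.14 to 1.77 log2 units. That the groups did not overlap was a condition of the choice of the 15 lowest.

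For 10 of the 15 lowest, the mock IP gives no full measurement or only part of one. Kcnq1ot1, the antisense non-coding RNA of the imprinted Kcnq1 domain, had levels of -7.26 and -5.48 against -2.54 and -2.21 (adjusted p = 0.0494) and was well above background on 1 of the 2 mock arrays. The same holds for Hormad1, Ndc80, Ttk, Runx1t1, Rbm44 and Ift74, with adjusted p-values between 0.0275 and 0.046. Ugt2b5 was at least 3.63-fold lower, Ankrd34b at least 3.45-fold and Spef2 at least 1.83-fold. With normexp none of the 15 lowest was called, and the log2 fold changes of these 10 genes lay between -2.22 and -0.90; those of Sycp3, Cwc27, Cfap36 and Prpf38b were -2.10, -2.24, -2.46 and -1.79. Without mock 1, input 1 or input 2 the adjusted p of the 15 lowest lay between 0.077 and 0.256 and none passed, without mock 2 it lay between 0.0215 and 0.0569 and 12 passed, and all 15 kept their sign in every case.

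Each replicate number was also described alone, with 1 mock and 1 input array and so with no test. In replicate number 1, 3606 genes were at least 2-fold higher in the mock IP (19%) and 2450 at least 2-fold lower (12.9%). In replicate number 2 the counts were 1331 higher and 1331 lower, 7% each. The genes at least 2-fold higher in both numbered 999 (5.25%), which is 27.7% of those of replicate 1 and 75.1% of those of replicate 2. The genes at least 2-fold lower in both numbered 1018 (5.35%), which is 41.6% and 76.5%. The median difference over all genes was 0.31 in replicate number 1 and 0.06 in replicate number 2. Across genes, which are not independent replicates, the differences of the 2 replicate numbers had a Pearson r of 0.746, and 3854 genes (20.3%) differed in sign between them. The mock arrays differed from each other by a median of 0.45 log2 units and the input arrays by 0.17.

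At each end, 3 of the 6 leading genes of the 2 replicate numbers were shared; they were taken within each number among genes measured on both arrays. In replicate number 1 the 6 highest were Dbn1, Rmrp, Myh14, Myh9, Itpka and Spock1, and in replicate number 2 they were Dbn1, Myh10, Myh14, Rmrp, Fbxo34 and Lmo7. Spock1, a matrix proteoglycan gene, was the exception: its level was -3.06 on mock 1 and -6.69 on mock 2, against -6.58 and -5.93 on the input arrays, so the 2 differences had opposite signs (3.53 and -0.76). At the lower end, Zfp758, Zfp987 and Zfp985, all zinc finger genes, were in the 6 lowest of both numbers. Zfp987 had levels of -1.53 and 0.21 on the mock arrays and 3.38 and 3.56 on the input arrays, and both mock arrays lay more than 3 log2 units below both input arrays. Its log2 fold change was -4.13 ± 1.08 (adjusted p = 0.0515), Zfp985 had -4.03 ± 1.12 (adjusted p = 0.0589) and Zfp758 had -4.21 ± 1.32 (adjusted p = 0.0762). None of the 3 was called, although their changes were as large as those of the lowest called genes; with the replicate block their adjusted p-values were 0.00421, 0.00481 and 0.00539. Zinc finger genes of this kind have close relatives, and the genes that such a probe reads cannot be told apart here.

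**Figure D3:**
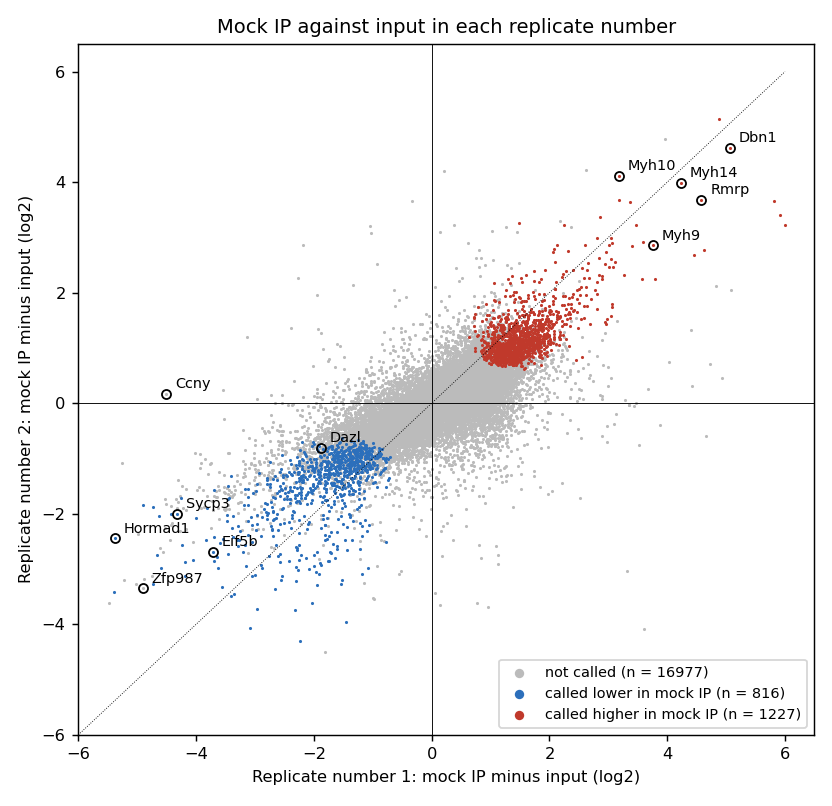
Mock IP minus input (log2) in replicate number 1 (horizontal axis) and 2 (vertical axis) for the 19020 genes, with 1227 called higher in red, 816 called lower in blue and the rest in grey; the dotted line marks equal differences. Dbn1, Myh14, Rmrp and Myh10 lie near the line at the upper right, Hormad1 and Sycp3 lie above it at the lower left with the larger difference in replicate number 1, and Ccny is set apart by its input arrays.

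The largest disagreement between the replicate numbers was that of Ccny, a cyclin gene, and it lay in the input: 6.29 on input 1 and 2.33 on input 2, with 1.77 and 2.50 on the mock arrays. The differences were -4.51 and 0.17, and the gene was not called (adjusted p = 0.19). Ddias, a DNA damage response gene, had levels of -4.82 and -2.0 on the mock arrays and -0.29 and -0.28 on the input arrays, so here the mock arrays disagreed. In the other sense, Tas2r135, a bitter taste receptor gene, had -1.82 on mock 1 and -4.88 on mock 2 against -5.29 and -4.88 on input, and the protease inhibitor gene Slpi had -1.78 and -4.51 against -4.66 and -4.58. Both were high on mock 1 alone. Tas2r135, Slpi, Cyp4v3, Taar2 and Mafa, 5 of the 6 genes with the largest excess in replicate number 1, were all below a level of -4 on both input arrays.

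The lists of genes below are read against all genes, of which 6.45% were called higher and 4.29% lower, and 20.6% and 13.7% with the block. Of 39 proteasome subunit genes 11 were called lower and 0 higher, with a median log2 fold change of -0.68 against 0.19 over all genes. The median was below that of all genes under each scaling that was tried. Psmd12, a lid subunit of the regulatory particle, had levels of 3.13 and 3.1 on the mock arrays and 4.77 and 4.73 on the input arrays (-1.63 ± 0.21, 3.1-fold lower, limma adjusted p = 0.0182). Psma4, a subunit of the core particle, had 1.44 and 1.30 against 3.29 and 3.0 (-1.77 ± 0.23, 3.41-fold lower, adjusted p = 0.0182). Both genes were tightly replicated. With the block 20 were called lower and 2 higher; without mock 1, input 1 or input 2 the adjusted p of the 11 lay between 0.0782 and 0.269.

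Cytosolic chaperone genes had 6 of 27 called lower, 0 called higher and a median of -0.64. The called genes were 4 subunits of the CCT chaperonin, which folds actin and tubulin (Cct6a at -1.93, Cct8 at -1.78, Cct3 at -1.5 and Cct4 at -1.36), the DNAJ protein gene Dnaja1 (-2.07) and Hsp90aa1 (-1.17). Hsp90aa1 had levels of 6.53 and 6.55 on the mock arrays and 7.80 and 7.62 on the input arrays, and so it remained a bright gene in both groups. Of 34 aminoacyl-tRNA synthetase genes 6 were called lower and 0 higher, with a median of -0.32; Rars had the lowest value (-2.19 ± 0.27, adjusted p = 0.0175). With the block, 13 chaperone and 10 synthetase genes were called lower. The calls of these 2 lists ended without mock 1, input 1 or input 2, with adjusted p-values between 0.0782 and 0.248.

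Of 57 translation initiation and elongation factor genes 11 were called lower and 0 higher, but the list median was -0.07. Beside Eif5b, Eif2a (-2.12 ± 0.48) and Eif2s2, a subunit of the factor that carries the initiator tRNA (-2.03 ± 0.37), were the lowest that were measured on both mock arrays. The list median was below that of all genes except with normexp, where it lay 0.12 above. The 85 cytosolic ribosomal protein genes had a median of 0.63, both mock arrays lay above both input arrays in 69 of them (40.2% of all genes), and 0 were called higher by limma, with 25 higher at an unadjusted p under 0.05. The 1 called lower, Rpl4, had levels of 4.74 and 4.92 on the mock arrays and 6.17 and 5.84 on the input arrays (-1.18 ± 0.28, adjusted p = 0.0412). With the block 32 were called higher (20.6% of all genes), and with quantile normalization the list median lay 0.10 below that of all genes, so its direction depends on the scaling. Mitochondrial ribosomal protein genes had 7 of 78 called lower and 1 higher, with a median of -0.16, and nuclear-encoded oxidative phosphorylation genes had 1 of 86 in each direction, with a median of 0.08. Both medians lay below that of all genes, except with normexp, where they lay above it. With the block 4 higher and 14 lower were called among translation factors, 4 and 12 among mitochondrial ribosomal proteins, and 4 and 5 among oxidative phosphorylation genes. No call of these 4 lists remained without mock 1, input 1 or input 2, with adjusted p-values between 0.0821 and 0.264.

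**Figure D4:**
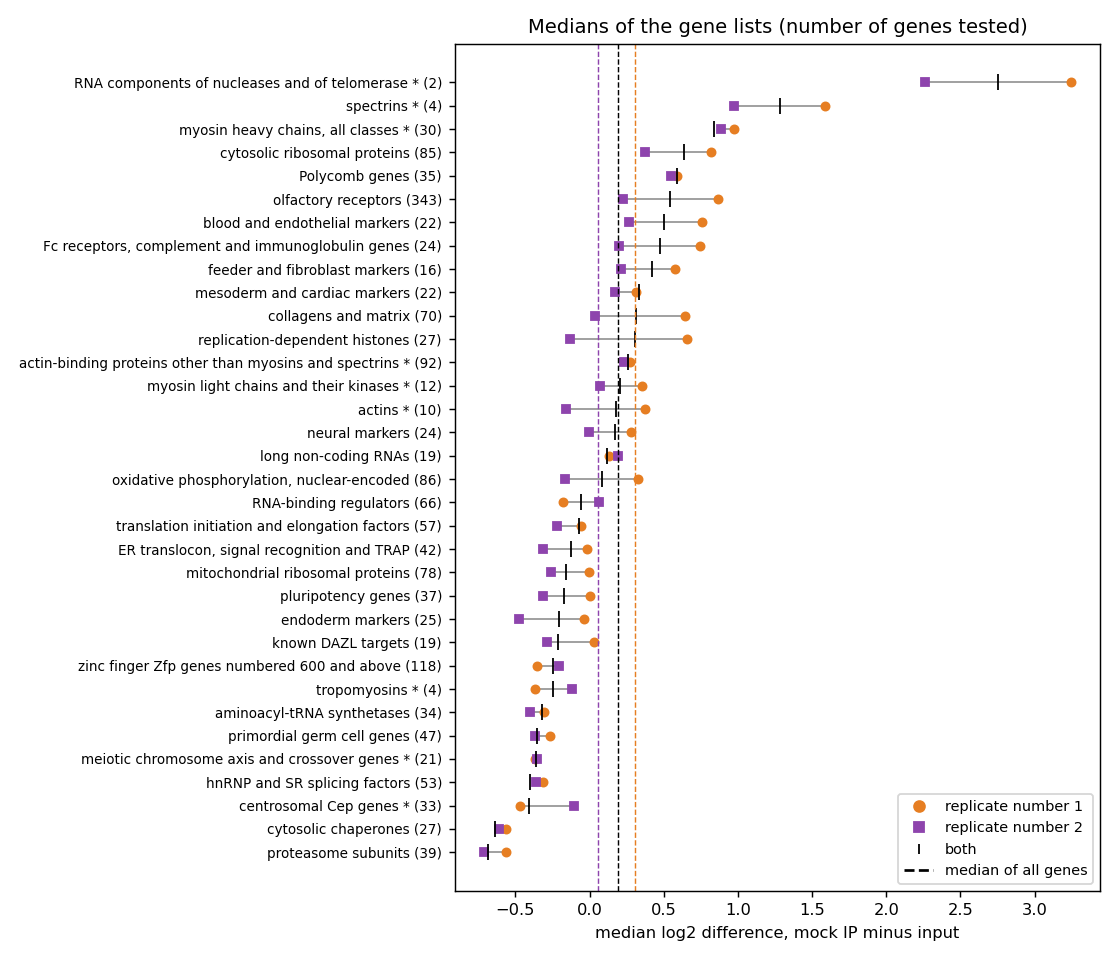
Median log2 difference of mock IP minus input (horizontal axis) for each gene list with its number of tested genes, in replicate number 1 (orange circles), replicate number 2 (purple squares) and both (black ticks); dashed lines give the medians of all genes in the same colours, and an asterisk marks lists chosen after values were seen. Spectrins and myosin heavy chains have the highest medians of the lists with more than 2 genes, and proteasome subunits (-0.68) and chaperones (-0.64) the lowest.

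Genes for RNA-binding proteins were mostly near or below the level of all genes. Of 53 hnRNP and SR splicing factor genes 4 were called lower (Srsf11, Snrpa1, Hnrnpu and Sf3a3) and 0 higher, with a median of -0.40, and 15 were called lower with the block. Of 66 RNA-binding regulators 3 were called higher and 4 lower. The 3 were Cpeb4 (1.87 ± 0.33) and Cpeb2 (1.27 ± 0.28), which control poly(A) tails, and the decapping enzyme gene Dcp2 (1.33 ± 0.32), and each of them had 1 other probe of opposite sign. The 4 were Fxr1 (-1.60 ± 0.40), Cnot4 (-1.60 ± 0.38), Elavl4 (-1.29 ± 0.27) and Elavl2 (-1.13 ± 0.29), and none of their other probes differed in sign. The adjusted p of these 7 lay between 0.0261 and 0.0477, and with the block 8 were called higher and 12 lower. The list median was -0.06, below that of all genes except with normexp, where it lay 0.08 above. Without mock 1, input 1 or input 2 the adjusted p of the calls in both lists lay between 0.0782 and 0.257.

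Dazl, whose protein the V5 and GFP antibodies target, was measured on all arrays. Its level was 1.02 on mock 1, 2.0 on mock 2, 2.90 on input 1 and 2.81 on input 2. Both mock arrays lay below both input arrays, and the log2 fold change was -1.34 ± 0.39, which did not pass (limma adjusted p = 0.0636). It was called with the block (adjusted p = 0.0117), over the mean of its probes (-1.91, adjusted p = 0.0277) and without mock 2 (-1.83, adjusted p = 0.0308), and the adjusted p was between 0.239 and 0.268 without mock 1, input 1 or input 2. The level was 3.99 and 4.27 in the V5 IP and 3.85 and 4.59 in the GFP IP, above both the mock and the input arrays.

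Of 47 tested primordial germ cell genes 6 were called lower in the mock IP and 0 higher, with a median of -0.35 that lay below that of all genes under each scaling. Sycp3, a protein of the meiotic chromosome axis and a DAZL target in the literature on germ cells, had levels of -4.36 and -2.44 on the mock arrays and -0.04 and -0.44 on the input arrays (-3.16 ± 0.60, 8.95-fold lower, limma adjusted p = 0.0285). Ddx4, the germ cell RNA helicase, had levels of -0.87 and -0.65 against 1.02 and 0.67 (-1.61 ± 0.27, 3.04-fold lower, adjusted p = 0.0253). The other called genes were Hormad1, the Tudor domain gene Rnf17 (-2.32 ± 0.33), the germ granule gene Asz1 (-2.03 ± 0.30) and the kinase gene Stk31 (-1.60 ± 0.25). In the V5 IP Sycp3 read 0.03 and 0.41, and in the GFP IP -0.81 and 0.12. A list of meiotic axis and crossover genes, chosen after values were seen, had 6 of 21 called lower: Hormad1, Sycp3, Sycp2, Tex11, Meiob and Syce1. Hormad1 and Sycp3 were already seen among the lowest genes, so this count is a description and supports nothing further. Sycp2 was at least 2.99-fold lower and Tex11 at least 1.2-fold. With the block 11 of the primordial germ cell genes were called lower and 1 higher. The called germ cell and meiotic genes had adjusted p-values between 0.0782 and 0.223 when mock 1, input 1 or input 2 was left out.

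The early germ cell and pluripotency genes that define the cells were not called. Of 37 pluripotency genes 0 were called (6 lower and 2 higher with the block, and as many at an unadjusted p under 0.05 in limma), with a median of -0.17 that was below that of all genes except with normexp. Pou5f1 had levels of 4.23 and 3.41 on the mock arrays and 4.21 and 4.14 on the input arrays, and Nanog had 2.15 and 1.72 against 2.41 and 2.36. Dppa3 had 2.72 and 1.73 against 3.23 and 2.75 (-0.76 ± 0.69, adjusted p = 0.462), and Tfap2c had 4.51 and 4.24 against 3.74 and 3.77 (0.62 ± 0.36, adjusted p = 0.263). Of 19 listed DAZL targets 2 were called lower, Sycp3 and Ddx4, with a median of -0.21. A p that misses the threshold does not show that these levels were equal.

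**Figure D5:**
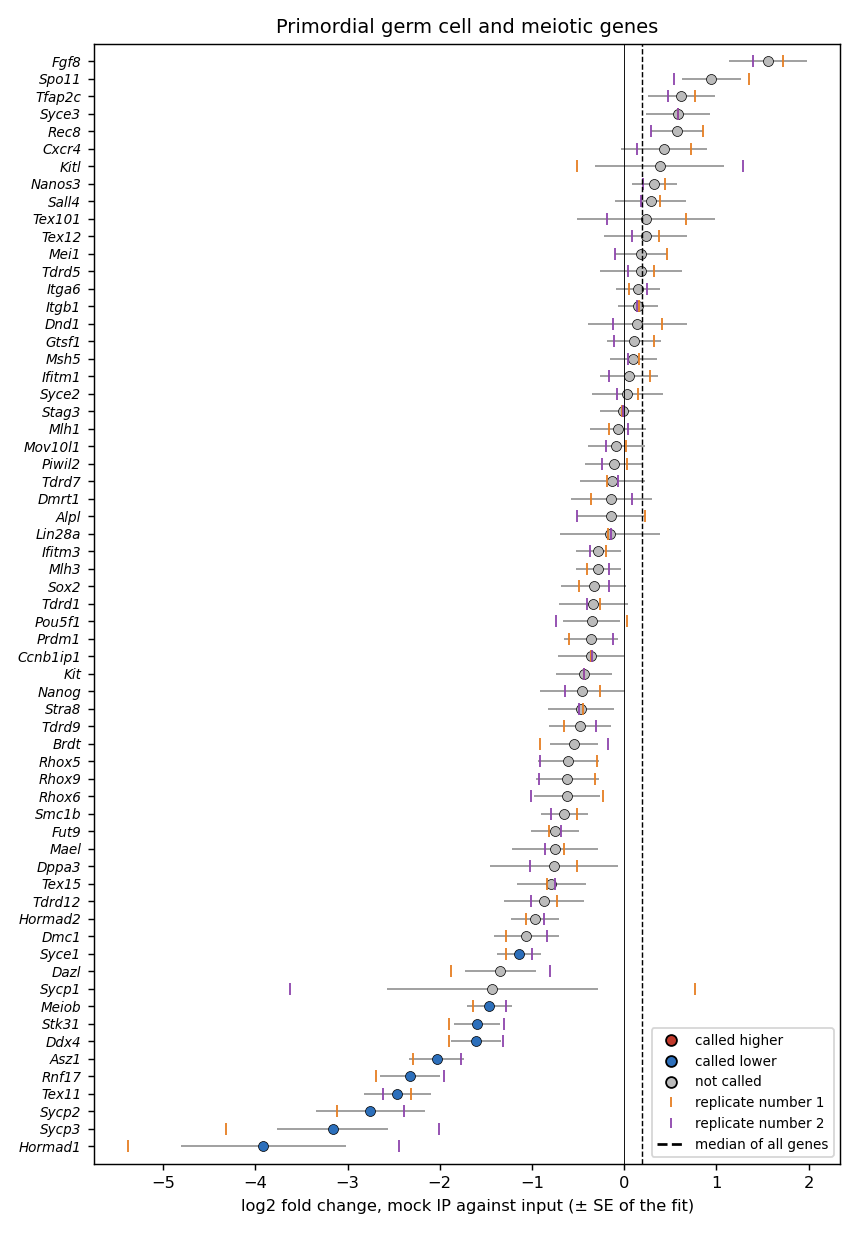
Log2 fold change of mock IP against input (horizontal axis) for the tested primordial germ cell and meiotic genes, as points with the SE of the fit, blue where called lower and grey where not called; ticks give replicate number 1 (orange) and 2 (purple) and the dashed line the median of all genes. The 10 called genes lie to the left of -1, among them Hormad1, measured on only 1 of the mock arrays, and Sycp2 and Tex11, which have only bounds; Dazl at -1.34 was not called, and the replicate numbers of Sycp1 disagree in sign.

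The labelled cell type was checked on the input arrays. Of 10 germ cell markers 9 were tested, with a median input level of 2.33 and a median mock level of 1.51; Prdm14 has no probe here. The 5 pluripotency markers had medians of 3.47 and 3.14. Markers of other cell types were present as well: the 6 feeder or fibroblast markers had a median of -0.35 in the input and 0.86 in the mock IP, 5 neural markers -0.58 and -1.04, 4 of 5 mesoderm markers -1.21 and -1.38, 4 of 5 endoderm markers -1.26 and -1.55, and 5 blood and endothelial markers -3.78 and -3.49. These are medians of levels, so the gap between 2 of them is not the median change of the markers. The log2 fold changes of the fibroblast markers were 1.99 (Col3a1), 0.87 (Col1a1), 0.42 (Thy1), -0.12 (Pdgfra), -0.45 (Col1a2) and -0.91 (Dcn). For the input levels of the markers, fewer cells of a type and less RNA per cell cannot be told apart in bulk samples. Of the fibroblast markers, Col3a1 was called higher in the mock IP, with levels of 1.83 and 0.84 against -0.45 and -0.86 (1.99 ± 0.35, 3.97-fold, limma adjusted p = 0.0263), while Col1a2 had 2.64 and 1.72 against 2.65 and 2.61 and Dcn had -5.58 and -4.51 against -4.45 and -3.81, neither called.

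Collagen and matrix genes had 7 of 70 called higher (10%, against 6.45% of all genes) and 0 lower, with a median of 0.31. The 7 were Col7a1 (2.19 ± 0.44), which forms anchoring fibrils, Col20a1 (2.0 ± 0.31), Col3a1, Col27a1 (1.66 ± 0.23), the cartilage collagens Col2a1 (1.55 ± 0.27) and Col11a2 (1.29 ± 0.33), and the basement membrane chain Col4a4 (1.10 ± 0.25). The median was 0.64 in replicate number 1 and 0.03 in replicate number 2. With the block 17 were called higher and 7 lower, where 20.6% and 13.7% of all genes were. Of 16 feeder and fibroblast genes 3 were called higher, Col3a1, the transcription factor gene Twist2 (1.72 ± 0.35) and the receptor gene Pdgfrb (1.13 ± 0.29). Without mock 1, input 1 or input 2 the adjusted p of these genes lay between 0.0821 and 0.259.

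Genes of Fc receptors, complement and immunoglobulins, which could bear on an IP with IgG, had 3 of 24 called higher and 0 lower, with a median of 0.47. Ighg1, the heavy chain gene of mouse IgG1, had levels of -1.15 and -1.38 on the mock arrays and -2.32 and -2.80 on the input arrays (1.30 ± 0.25, 2.46-fold, adjusted p = 0.0287). The complement genes C4b (1.43 ± 0.33) and C1qb (1.12 ± 0.22) were the others. All 3 genes lay well below the 75th percentile in both groups, and no Fc receptor gene was called. With the block 9 were called higher, and without mock 1, input 1 or input 2 the adjusted p of the 3 lay between 0.0995 and 0.232.

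Of 35 Polycomb genes 3 were called higher (8.57%) and 2 lower (5.71%), near the 6.45% and 4.29% of all genes, with a median of 0.59 that lay above that of all genes under each scaling. Phf1 (1.59 ± 0.24), Phc2 (1.53 ± 0.22) and Bcor (1.5 ± 0.21) were higher, and Eed (-1.53 ± 0.24), a core subunit of the complex that methylates histone H3, and Pcgf6 (-1.03 ± 0.27) were lower. Phc2 had levels of 4.88 and 4.79 on the mock arrays and 3.21 and 3.40 on the input arrays, and Eed 0.65 and 0.95 against 2.44 and 2.23, so these opposite changes were both larger than the spread of their arrays. With the block 14 Polycomb genes were called higher and 2 lower. Of 33 genes for centrosomal Cep proteins, listed after values were seen, 5 were called lower (Cep290, Cep44, Cep70, Cep57 and Cep55) and 2 higher (Cep131, 1.75 ± 0.26, and Cep170b, 1.74 ± 0.26). Cep290 was at least 3.17-fold lower, and with the block 9 of the list were called lower and 6 higher. Of 118 zinc finger genes with Zfp numbers of 600 and above, 12 were called higher and 3 lower while the median was -0.25. Zfp787 had the highest call (1.82 ± 0.34). The 3 called lower were not well above background on either mock array and have only bounds. They were at least 2.53-fold lower for Zfp850, the lowest call, 2.21-fold for Zfp976 and 1.14-fold for Zfp950. With the block 22 were called higher and 35 lower. In these 3 lists the adjusted p of the calls without mock 1, input 1 or input 2 lay between 0.0793 and 0.264.

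Olfactory receptor genes are used in nasal sensory neurons, and most of the 901 on the array were too dim to test. Of the 343 tested, 27 were called higher (7.87%, near the 6.45% of all genes) and 1 lower, with a median of 0.54, and the median was 0.86 in replicate number 1 and 0.22 in replicate number 2. Olfr430 had levels of 1.97 and 1.29 on the mock arrays and -1.04 and -1.18 on the input arrays (2.74 ± 0.34, 6.68-fold, adjusted p = 0.0173), and Olfr1153 had 1.70 and 0.88 against -1.14 and -1.43 (2.58 ± 0.38, 5.97-fold, adjusted p = 0.0198). With normexp the list median lay 0.18 below that of all genes, so the direction of the list depends on the handling of background. With the block 112 were called higher and 3 lower, and without mock 1, input 1 or input 2 the adjusted p of the 28 lay between 0.0821 and 0.279. The markers of blood and endothelium (2 of 22 higher, Vwf and Csf1r, median 0.50) and of mesoderm (0 of 22, with 3 higher at an unadjusted p under 0.05 in limma, median 0.33) changed sides of the median of all genes with normexp. Of 27 replication-dependent histone genes 2 were called higher, the linker histones H1f2 (1.59 ± 0.28) and H1f4 (1.14 ± 0.28). Of 24 neural markers 2 were called lower, Elavl4 and Map2 (median 0.17, whose side of the median of all genes changed with quantile normalization), of 25 endoderm markers 1 was called lower, Fgg (median -0.21), and of 42 genes of the ER translocon and its partners 4 were called lower, Srp54a, Sec63, Pdia3 and Hspa5 (median -0.13, above that of all genes with normexp). Of 19 long non-coding RNAs Rmrp was called higher and Kcnq1ot1 lower. With the block, higher and lower calls numbered 8 and 1 for blood and endothelium, 4 and 0 for mesoderm, 3 and 0 for histones, 3 and 4 for neural, 1 and 3 for endoderm, 1 and 9 for the translocon and 3 and 3 for long non-coding RNAs. All of these calls ended without mock 1, input 1 or input 2, with adjusted p-values between 0.0822 and 0.264.

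The calls were not spread evenly over signal. The genes were divided into 5 groups of 3804 by their mean level over the 4 arrays. In the dimmest group 3.08% were called higher and 6.36% lower, and in the brightest 8.02% and 3.08%. The median log2 fold change was between 0.10 and 0.29 in all 5 groups and did not follow the level. Of 646 called genes with more than 1 kept probe, 64 had another probe of opposite sign, and of all 6537 such genes 1778 did.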

How the data were processed

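Agilent Feature Extraction 9.1.3.1 produced the deposited array tables, per the file headers. They hold linear spot intensities, of which the processed intensity is background-subtracted. The authors' deposited table of the whole series holds normalized signal values, with a quality score that served here to match 44985 of 45018 entries to 1 spot within 1e-05. The deposited intensities were averaged over the spots of a probe, with spots flagged as outliers left out. The averages were then taken to log2 and scaled to each array's 75th percentile. A probe stayed in where some group had both of its arrays well above background (28103 of 41174; 26 of these had a missing value and were dropped), and the brightest kept probe stood for its gene, giving 19020 genes. Names came through RefSeq accessions (22951 probes), current symbols (6659) or synonyms (3096) of the GRCm38.p6 table, or as in the files (8468).

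limma 3.58.1 in R 4.3.3 was fitted to all 8 arrays in 4 groups. On simulated data for this comparison over 19020 genes, 37 of 100 genes changed by a log2 of 2 and 0 of 100 changed by a log2 of 1 were recovered. No other gene was changed in the simulation, whereas 6286 genes of the data had an unadjusted p under 0.05 in limma. The Benjamini-Hochberg cutoff was therefore stricter in the simulation, and its recovered shares do not carry over to these data. An "at least" fold uses the lowest signal well above background on each array. Named genes were the 15 highest and 15 lowest called among genes whose mock and input arrays did not overlap, clone names left out. Also named were the 2 at each end of each list, and the 6 at each end of each replicate number and of their disagreement. The actin-binding, myosin, spectrin, Actb and other members beyond these were chosen after their values were seen. A few named genes are not reported here. Members and lists were chosen with earlier results of these data known. Slide 1 held replicate 1 of all groups and slide 2 replicate 2, scanned separately, so the replicate block is also the slide block. Labels do not say what a replicate number shares. Alternatives were quantile normalization, normexp (offset 50), median centring, the deposited signal (log2 with 0.1 added), 2 other filters, only the 4 arrays, the block, the mean of probes and each array left out. The number of arrays limits the precision.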

Additional observations from a re-analysis of the deposited data

How the results depend on the processing

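Across the 13 alternatives no called gene among those named by rule changed direction where it was tested. No called gene was called in the opposite direction. The direction of the genes named beyond the rules was not followed across all alternatives. The log2 fold change had a median over all genes of 0.19, which was -0.13 with normexp and 0.37 with no filter, and 0.0865 to 0.289 with 1 array left out. Genes called higher and lower numbered 8 and 0 with normexp, 65 and 67 with no filter, where 27659 genes were tested, and 23 and 20 with only the mock and input arrays, where fewer arrays estimate the spread. The counts were 1525 and 1169 with quantile normalization, 1185 and 966 when a gene's probes were averaged and 1107 and 964 on the authors' deposited signals. With 1 array left out they ranged from 0 to 2405 higher and from 0 to 1409 lower; the cause was not tested. In the normexp setting the counts at least 2-fold apart were 2311 higher and 4425 lower in replicate number 1, and 815 and 516 in replicate number 2.

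With the replicate number as a block, 3912 genes were called higher and 2602 lower. The deviations of mock and input arrays from their group means correlated at 0.329, and at 0.313 to 0.782 over the 6 pairs of groups. With 2 replicate numbers this check cannot show a pairing, and the labels state none. Normexp kept the calls of Dbn1, Myh14, Fbxo34, Fbxo46, Myh9, Itpka, Denn2b and Pprc1. At the lower end 181 of 816 genes have only a bound.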
